A study of Mus musculus with 2 samples.

Results

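The T cell receptor genes described here are 10 genes for surface and signalling proteins of T cells, Cd3d, Cd3e, Cd3g, Cd247, Cd2, Cd5, Cd8a, Cd4, Thy1 and Lck. They were listed by name, as a readout of T cells in a macrophage culture. No threshold on their values was used, though earlier results of these data were known. All 10 were among the 15605 genes listed in the deposited tables, and all 10 had reads in both libraries. The libraries came from peritoneal macrophages, the phagocytes of the abdominal cavity, of C57BL/6 mice aged 6 to 8 weeks. The wild type library came from wild type mice, and the knockout library from mice labelled lgmn-/-, which lack the lysosomal protease legumain. Both cultures shared a co-culture of 4 days with EO771, a mammary carcinoma line of the mouse, and no library of macrophages alone was analysed here. There was 1 library for each genotype, and the sources used here do not say whether a library pooled several animals or whether cells were sorted. With 1 library a group there is no replicate check and no p-value, and every difference below is one between these 2 libraries.

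The T cell receptor is a pair of variable chains that bind antigen peptides held on MHC molecules, and it is carried to the cell surface and made able to signal by the invariant chains CD3 delta, epsilon and gamma and by the zeta chain, the product of Cd247. The coreceptors CD4 and CD8 bind MHC class II and class I molecules and bring the kinase Lck, which phosphorylates the CD3 and zeta chains. Several of the 10 genes are not restricted to T cells. Natural killer cells use the zeta chain, CD2 and Lck, peritoneal B-1a cells carry CD5, some dendritic cells carry CD8 alpha or CD4, and THY1 occurs on innate lymphoid cells and fibroblasts. In bulk RNA, fewer cells of a type and less RNA per cell cannot be told apart.

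After rounding, the libraries held 11885755 estimated counts in wild type and 11740202 in the knockout. Lgmn itself had 23550 and 426 counts, 64.4-fold lower in the knockout library (58.6 to 71.1), the direction the genotype labels give. Gene counts do not show from which exons the remaining reads came. Lyz2 and Cd68, abundant macrophage genes, had FPKM of 13192 and 5173 in wild type and 12481 and 3756 in the knockout. Adgre1 had 2641 and 4276 counts and Csf1r 3932 and 8936, while Cd163, a marker of some resident macrophages, had 3 and 1. The labelled cell type thus had its main markers in both libraries. A fold here is the knockout over the wild type count after scaling with TMM factors, and its 95% interval is an exact Clopper-Pearson interval that covers counting error only. For the log2 ratio, 1 was added to each scaled count. A gene needed at least 50 counts in the higher library to be compared with the 2-fold threshold. A gene that reaches this in 1 library only is thus taken in through the library where it is higher.

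Of the 10 genes, Cd3g and Cd3d share a stretch of chromosome 9 and are read away from each other. Their starts lie 1338 bases apart, and Cd3e lies farther along the same chromosome. The DNA just before both gene intervals is shown because both genes start from this short stretch. Capitals mark matches, on either strand, to motifs of 4 kinds of transcription factor. The ETS-type motif searched was AGGAAGT. The RUNX-type motif was TGTGGTT. The E-box was CAGGTG. The GATA-type motif was AGATAA. Both sequences are written 5′ to 3′ along the gene's own strand. The sequences are from RefSeq on GRCm38.p6. The Cd3g sequence is the minus strand of chr9:44980432-44980681 and the Cd3d sequence is the plus strand of chr9:44981536-44981768.
Cd3g: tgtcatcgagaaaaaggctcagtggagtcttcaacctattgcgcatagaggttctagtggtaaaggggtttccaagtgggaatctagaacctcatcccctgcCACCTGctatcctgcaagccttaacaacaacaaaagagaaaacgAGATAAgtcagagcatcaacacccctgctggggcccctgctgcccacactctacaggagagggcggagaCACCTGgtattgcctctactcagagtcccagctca
Cd3d: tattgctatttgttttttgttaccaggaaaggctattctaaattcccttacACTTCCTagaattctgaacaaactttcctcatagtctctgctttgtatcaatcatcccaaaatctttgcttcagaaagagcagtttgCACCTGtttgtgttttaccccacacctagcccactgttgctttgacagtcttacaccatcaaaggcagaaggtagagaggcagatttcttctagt

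The RefSeq promoter table held 8 windows for 7 of the 10 genes, Lck with 2 starts, and had no entry for Cd2, Cd4 or Thy1. Over the 250 bases before each start, AGGAAGT or its reverse complement ACTTCCT lay in 6 of the 8 windows, those of Cd247, Cd3d, Cd3e, Cd5 and both of Lck. The same letters lay in 7.69% of all 32851 windows of that length. The E-box CAGGTG (or CACCTG) was found in 5 of the 8 windows against 17.2% of all, and TGTGGTT in 1 against 4.4%, that of the far Lck start. AGATAA was found in 1, that of Cd3g, against 9.99%. The motifs were chosen with the sequences in view. The 6 matches are written below in the direction that reads AGGAAGT, in capitals, for comparison between the genes. They are chr9:44981575-44981604 (minus strand), chr9:45009612-45009641 (plus), chr1:165788611-165788640 (minus), chr19:10739008-10739037 (minus), and for Lck chr4:129573633-129573662 and chr4:129558468-129558497 (both minus), in the order given.
Cd3d: ttcagaattctAGGAAGTgtaagggaattt
Cd3e: gaaccccacacAGGAAGTgtagaggggact
Cd247: gattcataggcAGGAAGTtctgaaggtttg
Cd5: gtttcacagggAGGAAGTtgacagttcaac
Lck far start: cctcaggagacAGGAAGTcagggtggaacg
Lck near start: gctggggcggcAGGAAGTgggtaactagac
The matches began 199, 18, 58, 52, 10 and 114 bases before the transcript start that the promoter table uses, in the same order. That start need not be the end of the gene interval. It lies 17 bases inside the interval for Cd3d, 52 for Cd3e and for Cd5, 8729 for Cd247 and 15269 for the near start of Lck, so 4 of the 6 matches, all but those of Cd3d and the far Lck start, fall within the gene interval itself. A match describes letters only, and Cd5, the gene with a lower count in the knockout library, held one as well.

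All 10 genes were low in both libraries. Their FPKM, a level per transcript length and library size, ran from 0.12 to 6.67 in wild type and from 0.24 to 9.56 in the knockout. The median of all listed genes was 2.41 and 3.26. Only Thy1 and Cd3g exceeded that median in wild type, and Thy1, Cd3g and Cd3d in the knockout. Thy1 was the most abundant of the 10, yet it ranked 4805 among listed genes by FPKM in wild type and 4403 in the knockout. By FPKM the order in wild type was Thy1, Cd3g, Cd2, Cd3d, Lck, Cd247, Cd5, Cd8a, Cd4 and Cd3e. In that order only Thy1 and Cd3g had counting intervals that did not overlap, and all other neighbours overlapped. The knockout order was Thy1, Cd3g, Cd3d, Cd2, Lck, Cd247, Cd8a, Cd3e, Cd4 and Cd5. There the intervals separated Thy1 from Cd3g and Lck from Cd247.

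**Figure D1:**
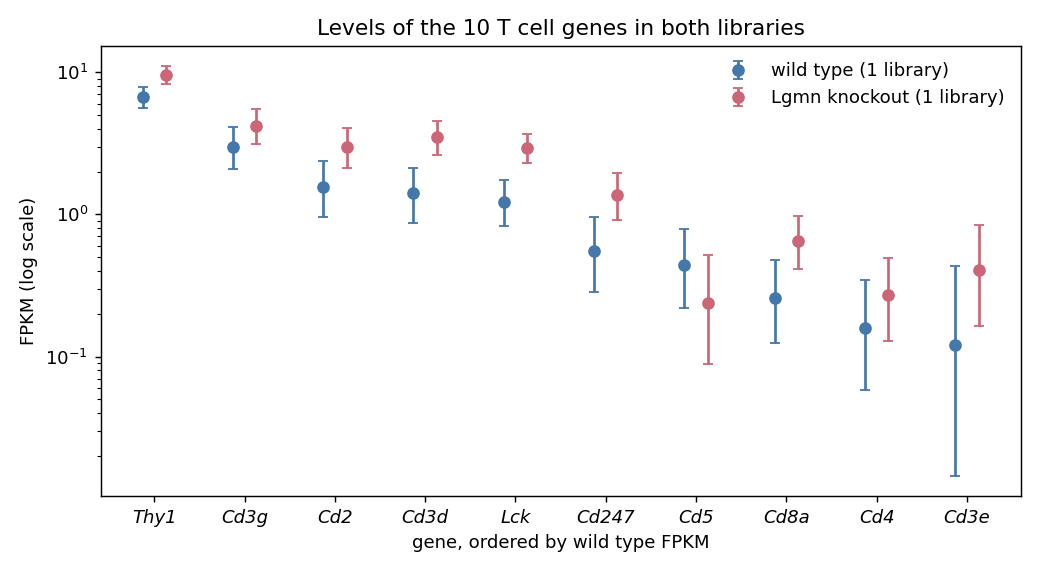
FPKM of the 10 T cell genes (log axis) in the wild type and the knockout library, 1 point per library, with 95% exact Poisson intervals that cover counting error only. The knockout point is the higher for 9 genes and the lower for Cd5, and Thy1 stands highest in both libraries, at 6.67 and 9.56.

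The invariant chains of the receptor all had more counts in the knockout library, and counting error excluded equal levels for Cd3d and Cd247 only. Cd3d (Entrez gene 12500, chromosome 9, 44981769 to 44987052 in GRCm38) had 22.27 counts in wild type and 54.34 in the knockout, with FPKM of 1.41 and 3.48. It was 2.11-fold higher (1.26 to 3.63), a log2 ratio of 1.04. Cd3g (12502, chromosome 9, 44969572 to 44980431) had 36 and 50 counts, with FPKM of 2.98 and 4.20. Its fold was 1.19 (0.761 to 1.88), so the difference lay within counting error. The intervals of Cd3d and Cd3g overlapped, which does not show that their folds were equal. Cd247, the zeta chain gene (12503, chromosome 1, 165779952 to 165871153), had 12 and 29 counts and FPKM of 0.55 and 1.37. It was 2.07-fold higher (1.03 to 4.46), below the count minimum. Cd247 overlaps Pou2f1, a transcription factor gene on the other strand, over 6004 bases. Pou2f1 had 28 and 92 counts, and as strand handling is not given, reads of the overlap cannot be told apart.

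Cd3e (12501, chromosome 9, 44998735 to 45009663) was nearly absent, at 2 and 7 counts and FPKM of 0.12 and 0.41. Its ratio of 3.0 had an interval of 0.572 to 29.6, so no difference was detectable at this depth. Per transcript length, Cd3d was 11.8 times as high as Cd3e in wild type (2.85 to 102) and 8.49 times in the knockout (3.83 to 21.97). Cd3g was 24.8 times (6.39 to 213) and 10.2 times (4.62 to 26.8) as high as Cd3e. These ratios are taken within a library and do not depend on scaling between libraries, though they were chosen after the values were seen. In an assembled receptor the epsilon chain pairs with both delta and gamma, and here its transcript was below both in each library.

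Summed over the 3 CD3 genes and Cd247, there were 72 counts in wild type and 140 in the knockout, 1.67-fold higher (1.25 to 2.25). Scaled to the library's own size, this was 6.06 CPM in wild type (4.74 to 7.63) and 11.9 CPM in the knockout (10.03 to 14.1). Cd3g made up 50% of the wild type sum and 35.7% of the knockout sum.

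The kinase that starts receptor signalling had a similar fold to Cd3d. Lck (16818, chromosome 4, 129548344 to 129573641) had 31 counts and an FPKM of 1.23 in wild type, and 74 counts and 2.95 in the knockout. It was 2.05-fold higher (1.33 to 3.22), a log2 ratio of 1.01. Measured against Thy1 within a library, the FPKM of Lck was 0.184 of that of Thy1 in wild type (0.121 to 0.274) and 0.309 in the knockout (0.233 to 0.405). These intervals overlapped, which does not show that the ratio was equal in both libraries, and a difference was not tested.

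The coreceptor genes were close to the limit of detection. Cd8a (12525, chromosome 6, 71373427 to 71379171) had 10 and 24 counts, 2.06-fold higher (0.949 to 4.82), with FPKM of 0.26 and 0.65. Cd4 (12504, chromosome 6, 124864693 to 124888247) had 6 and 10 counts, a fold of 1.43 (0.471 to 4.79), with FPKM of 0.16 and 0.27. Neither interval excluded equal levels with TMM factors, while with library totals that of Cd8a did, at 2.43-fold (1.12 to 5.69). Cd8b1, which encodes the beta chain of the CD8 heterodimer of most cytotoxic T cells, had 12.04 counts in wild type and 6.75 in the knockout, 1.998-fold lower (0.725 to 5.99). The FPKM of Cd8a was 0.366 of that of Cd8b1 in wild type (0.142 to 0.928) and 1.59 times in the knockout (0.639 to 4.20). Both chains had few counts. The 2 intervals overlapped, which does not show that the ratio was equal in both libraries, and a difference was not tested.

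The adhesion and accessory genes went both ways. Thy1, a surface glycoprotein (21838, chromosome 9, 44043384 to 44048579), had 140 and 198 counts and FPKM of 6.67 and 9.56. Its fold was 1.21 (0.972 to 1.52), or 1.43 with library totals (1.15 to 1.79). Cd2, an adhesion receptor that binds CD48 (12481, chromosome 3, 101275908 to 101287939), had 21 and 40 counts and FPKM of 1.55 and 2.99, a fold of 1.63 (0.941 to 2.92), or 1.93 with library totals (1.11 to 3.44). Cd5, an inhibitor of antigen receptor signals (12507, chromosome 19, 10718107 to 10739026), was the one gene with fewer counts in the knockout, 6 against 11. Its FPKM was 0.44 in wild type and 0.24 in the knockout, 2.14-fold lower (0.724 to 7.04), so it too lay within counting error. The FPKM of Cd2 was 3.52 times that of Cd5 in wild type (1.62 to 8.09) and 12.5 times in the knockout (5.25 to 35.95).

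**Figure D2:**
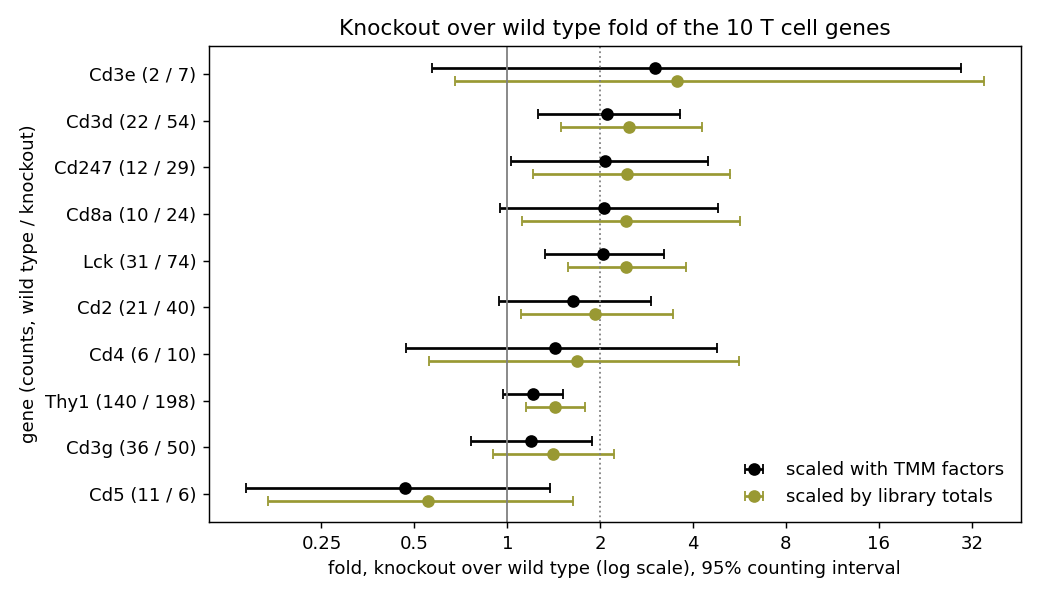
Fold of the knockout over the wild type library for each of the 10 genes (log axis), with 95% counting intervals, scaled with TMM factors (black) or by library totals (olive). The rounded counts stand beside each name, and the lines mark equal levels and 2-fold. With TMM factors, the intervals of Cd3d, Cd247 and Lck lie above 1, and those of the other 7 genes span 1. With library totals those of Cd2, Cd8a and Thy1 lie above 1 as well.

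Of the 4 genes with at least 50 counts, Cd3d and Lck reached a 2-fold higher level in the knockout, and none of the 4 reached a 2-fold lower one. Over all 9498 genes tested, 6.05% were higher by that much and 1.74% lower. Genes of few counts pass more often, and among those with 50 to under 200 counts, where all 4 lie, the shares were 8.71% and 2.83%. With library totals in place of TMM factors, Cd3d and Lck were again the 2 of 4, against 10.9% of all genes higher and 1.13% lower. With deposited FPKM they were the 2 of 4 against 9.85% and 1.07%. The median log2 ratio of the 4 was 0.64, against -0.0006 over all genes tested, and 4 of 4 had a ratio above 0, against 49.9% of all. Cd3d, Cd3g and Lck reached 50 counts in the knockout library only, and Thy1 in both. The count minimum thus took these genes but Thy1 in through their higher library, which in itself favours a ratio above 0. The calls of Cd3d and Lck stood at the threshold. They were lost with a pseudocount of 5, at log2 ratios of 0.94 for Cd3d and 0.93 for Lck. The 6 genes under 50 counts were Cd3e, Cd247, Cd2, Cd5, Cd8a and Cd4. Of the 5 of these with 10 counts or more, 0 reached 2-fold in log2 ratio, against 14.6% of such genes higher and 11.4% lower. Cd247, Cd8a and Cd5 fell just short, at 0.997, 0.978 and -0.974. Their folds without the added 1, given above, exceed 2. With library totals, which raised the median of all genes as well, the log2 ratios were 1.22, 1.20 and -0.76. Of all 9 genes with 10 counts or more, 2 reached 2-fold upward and 0 downward with TMM factors, against 7.76% and 3.67%. Of the 9 genes with at least 10 counts, 8 had a log2 ratio above 0, against 51.2% of all genes with that many counts. The counting interval lay above 1 for 3 of these 9, against 26.3% of all such genes, and below 1 for 0, against 26.7%. With library totals it lay above 1 for 6 of the 9, with Cd2, Cd8a and Thy1 added, against 42.5% of all such genes, and below 1 for 0, against 13.1%.

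The summed counts of the 10 genes were 291 in wild type and 492 in the knockout. This was 24.5 CPM in wild type (21.8 to 27.5) and 41.9 CPM in the knockout (38.3 to 45.8), 1.45-fold higher after scaling (1.25 to 1.68). Thy1 supplied 48.1% and 40.2% of these counts. Without Thy1 the sums were 151 and 294, 1.67-fold higher (1.37 to 2.05). Scaling by library totals in place of TMM factors raised the median log2 ratio of all genes by 0.24, and with it the fold of the sum to 1.71 (1.48 to 1.99).

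The log2 ratio of all genes followed transcript length, and the 10 genes are of short to middle length, from 1023 bases for Cd3g to 3130 for Cd8a. With the tested genes in 10 groups by length, the 10 genes fell in the lengths of groups 1 to 4 and 6, whose median log2 ratios ran from -0.37 to 0.04. Cd3g, the shortest, lay in the group with a median of -0.37. Subtracting the trend therefore raised 8 of the 10 log2 ratios and lowered those of Cd4 and Cd8a. Cd3d went from 1.04 to 1.30, Lck from 1.01 to 1.14, Cd3g from 0.25 to 0.55 and Thy1 from 0.28 to 0.47. Cd5 went from -0.97 to -0.84. After this adjustment 2.14% of all genes passed 2-fold upward and 1.90% downward, and Cd3d and Lck were again the 2 of the 4 genes that passed it, both upward.

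**Figure D3:**
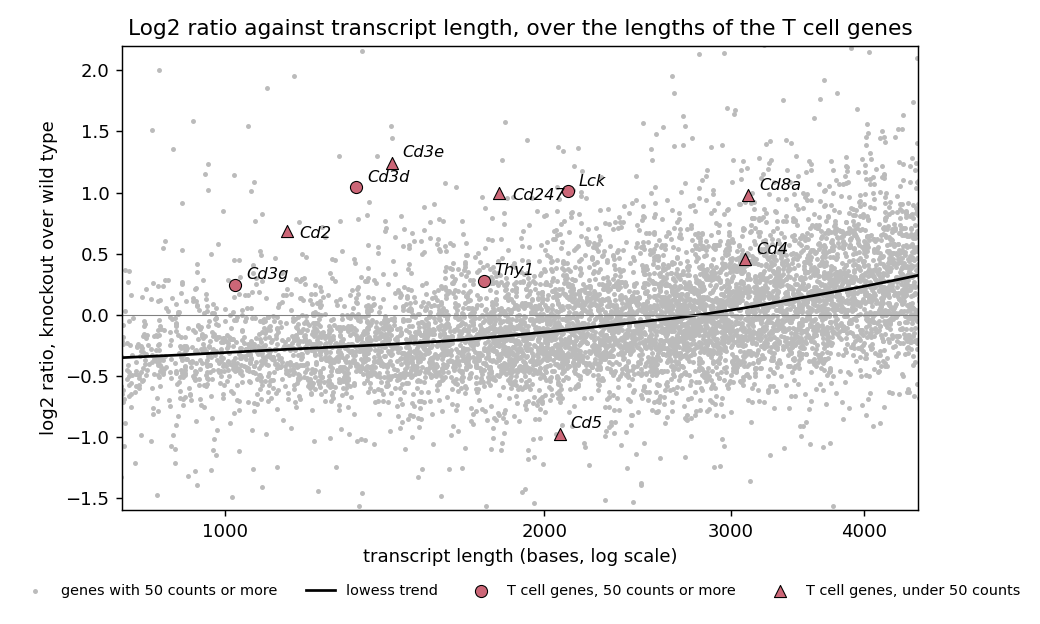
Log2 ratio of knockout over wild type against transcript length (log axis) for genes with 50 counts or more (grey), with their lowess trend (black) and the 10 T cell genes (red, circles at 50 counts or more, triangles below). The axes cover the lengths of the 10 genes and show 7020 of the 9498 genes tested. All of the 10 but Cd5 lie above the trend.

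The other genes of receptor signalling were mostly between the thresholds. Of 24 genes listed for signalling downstream of the receptor, 13 could be tested. Their median log2 ratio was 0.49, and 2 of the 13 passed 2-fold upward and 0 downward, against 6.05% and 1.74% of all genes. Among those that passed was Nfatc1, a transcription factor switched on by calcium signals, with 59 and 169 counts. Its log2 ratio of 1.28 became 0.97 after length adjustment, which left 0 of the 13 past 2-fold and a median of 0.17. Lat, the membrane scaffold phosphorylated after receptor engagement, had 102 and 69 counts, a log2 ratio of -0.78. Many genes of this list, such as Lcp2, Vav1 and Fyb, also serve myeloid cells.

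Among 20 inhibitors of receptor signalling, 12 were tested. Their median was 0.48, and 2 of the 12 passed 2-fold upward and 0 downward, against the same 6.05% and 1.74%. Pag1, an adaptor that holds the inhibitory kinase Csk, was 3.42-fold higher (2.60 to 4.56), with 64.72 and 259.3 counts. Cbl, a ubiquitin ligase, was 2.49-fold higher (2.03 to 3.06). Their log2 ratios of 1.76 and 1.31 became 0.91 and 0.89 after length adjustment, when 0 of the 12 passed 2-fold and the median was 0.31. Dgkz, a diacylglycerol kinase, was next by size, 1.47-fold higher (1.33 to 1.62).

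Several genes of the T cell lists, which need not be restricted to T cells, had few counts, and others had more. Zap70, the kinase that docks on phosphorylated zeta chains, had 12 and 13 counts. Themis, needed in thymocytes, had 2 and 4.62 counts, Tcf7 4 and 6, Lef1 1 and 5, and Bcl11b and Cd6 each 0 and 1. Bcl11b, Tcf7 and Lef1 encode transcription factors of the T lineage. Higher counts were found for Cd28, the costimulatory receptor, at 135 and 150, and for Lat, given above. Foxp3, the factor of regulatory T cells, had 28 and 38 counts, and Skap1, an adaptor, 14 and 44. Icos, a costimulatory receptor, had 2 and 16. These genes were picked from the lists after their values were seen. Of 16 T lineage transcription factors, 5 were tested and 1 passed 2-fold, upward, against 6.05% of all genes. This was Ikzf1, with 156 and 366 counts, 2.01-fold higher (1.66 to 2.44). Length adjustment brought its log2 ratio to 0.58. Ikzf1 is also expressed by myeloid cells. Runx3 and Ets1 had log2 ratios of 0.63 and 0.54. The receptor's own constant region genes, Trac, Trbc1, Trbc2, Trdc and Trgc1, Trgc2 and Trgc4, were not found by name among the listed genes. No level can therefore be given for them.

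Among receptors for cytokines and migration, 6 of 11 listed genes were tested and 1 passed 2-fold, upward, against 6.05%. It was Il2rb, a receptor chain for interleukins 2 and 15 shared by T and natural killer cells, with 90 and 223 counts, 2.13-fold higher (1.66 to 2.75). The log2 ratio of Il7r, a chain of the interleukin 7 receptor, was -0.23 with TMM factors and 0.01 with library totals, so its direction turned with the scaling. Of 9 effector genes tested, with a median of 0.71, 4 passed 2-fold upward and 0 downward, against 6.05% and 1.74% of all genes. The same 4 passed after length adjustment, against 2.14%. Xcl1, a chemokine of activated T and natural killer cells, was 5.69-fold higher (3.62 to 9.36), with 22 and 146 counts, and Ifng, interferon gamma, 5.40-fold higher (2.75 to 11.8), with 10 and 63. Ctsw and Tnf were the others, and Tnf is also made by macrophages.

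By size of ratio, the genes nearest to the summed CD3 and zeta chain counts, at a log2 ratio of 0.74, were Fyb at 0.73, Gzmb at 0.71 and Plcg1 at 0.71. They were the 3 nearest of 56 genes compared in the T cell lists with at least 20 counts. With 2 libraries each gene has 1 ratio, so this likeness is a single number and many genes share it.

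None of 10 genes listed as ligands passed 2-fold in either direction, and their median log2 ratio was 0.07. Cd80 and Cd86 among them bind CD28, which is not one of the 10 T cell genes. The other 8, a set formed after the values were seen, had FPKM from 36.3 for Cd72 to 31294 for B2m in wild type, and from 32.7 to 26417 in the knockout. Their median was -0.08 with TMM factors and 0.16 with library totals, so its direction turned with the scaling. H2-Ab1, a chain of the MHC class II molecule that CD4 binds, had a log2 ratio of 0.47, and B2m, the light chain of the class I molecules that CD8 binds, one of -0.49. Cd72, a proposed partner of CD5, was at -0.40 and Cd48, the partner of CD2, at 0.17. With library totals the values for B2m and Cd72 were -0.25 and -0.16.

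Several receptor genes of natural killer cells were higher in the knockout library. Of 13 such markers, all listed in both libraries, 5 were tested, with a median log2 ratio of 1.95. Klra8, Klrd1, Klrb1c and Klrk1, 4 of the 5, passed 2-fold upward, against 6.05% of all genes, and all 4 also after length adjustment, against 2.14%. Among genes with 50 to under 200 counts, where these 4 lie, 8.71% passed upward. All 4 reached 50 counts in the knockout library only, so the count minimum took them in where they were high. The log2 ratios of the markers under 50 counts ran from -0.90 for Khdc1a to 1.51 for Styk1, below that median. Klrd1, an inhibitory and activating receptor subunit, had 29 and 139 counts, 4.11-fold higher (2.74 to 6.37). Klrb1c had 22.85 and 106.87 counts and Klra8 7.54 and 50.03, though Klra8 belongs to a family of near-identical copies among which reads are divided by estimate. Ncr1, the natural cytotoxicity receptor, had 19 and 44. Summed, the 13 had 1143 and 2277 counts, 1.71-fold higher (1.59 to 1.84), an interval that overlaps the 1.25 to 1.68 of the 10 T cell genes. Gzma made up 82.2% and 73.2% of these counts. Without Gzma, a choice made after the values were seen, the sums were 204 and 610, 2.57-fold higher (2.19 to 3.02). Whether this interval overlaps that of the 10 T cell genes thus depended on Gzma. Overlap does not show equal folds, and a difference between the 2 lists was not tested. Gzma and Eomes stand in both this list and the T cell lists. The part of natural killer cells in the levels of Cd247, Cd2, Lck and Thy1, or of any other of the 10 T cell genes, was not tested.

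Markers of other cells that share some of the 10 genes went both ways. The 10 B cell markers listed had 726 and 1051 counts in sum, but 92.7% and 92.5% of these were Cd22, which myeloid cells can express. Cd79a, a chain of the B cell receptor, had 7 and 25, 3.06-fold higher (1.29 to 8.39). Of 10 dendritic cell markers listed, 2 were tested, with a median of 0.97, and 1 passed 2-fold upward, against 6.05% of all genes. This was Clec9a, found on dendritic cells of the CD8 alpha kind, with 13 and 74 counts, 4.88-fold higher (2.69 to 9.60). Clec9a reached the count minimum in the knockout library only. Xcr1, of the same cells, had 6.12 and 23.28, 3.29-fold higher (1.30 to 9.87). The other tested gene, Snx22, had 1152 and 1116 counts, a log2 ratio of -0.27, and Batf3 27 and 28, one of -0.16. Of the 4 dendritic cell markers with 10 counts or more, 2 had a log2 ratio above 0. The list had 1210 and 1268 counts in sum, a fold of 0.899 (0.830 to 0.973), and Snx22 made up 95.2% and 88.0% of these. The 7 mast cell markers listed had 145 and 160 counts in sum. Among them Tpsab1 had 22 and 8, 3.21-fold lower (1.37 to 8.33). Of the 5 mast cell markers with 10 counts or more, 2 had a log2 ratio above 0. The 8 neutrophil markers had 373 and 477, of which 361 and 456 were S100a8, while S100a9 had 0 and 1. Of 11 fibroblast markers listed, 8 were tested and 7 passed 2-fold downward, against 1.74% of all genes, with a median of -2.05 and sums of 3171 and 1136. Mesothelial markers had 95 and 7 counts, and epithelial carcinoma markers 26 and 30, with Epcam at 1 and 2. The part of dendritic cells, B cells and fibroblasts in the levels of Cd8a, Cd4, Cd5 and Thy1 was not tested.

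**Figure D4:**
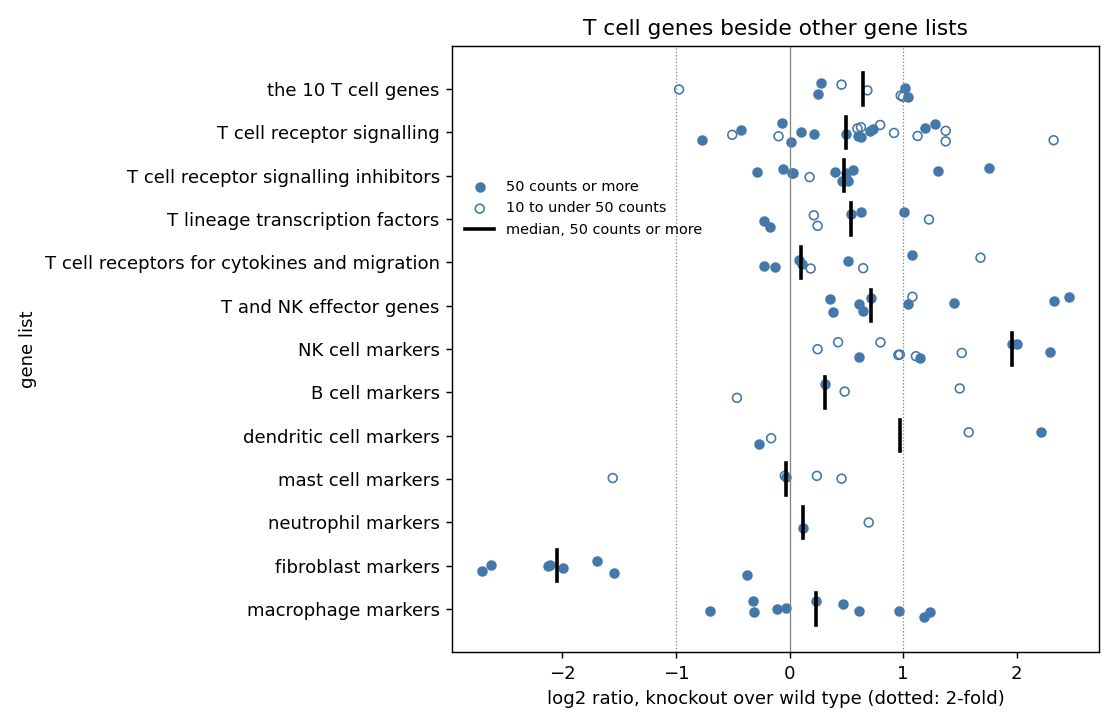
Log2 ratio of knockout over wild type for the genes of 13 lists (1 row each), filled points at 50 counts or more and open points at 10 to under 50, with the median of the filled points as a bar and 2-fold as dotted lines. The filled T cell genes lie between 0.25 and 1.04, the filled natural killer markers reach 2.30, and 7 of the 8 filled fibroblast markers lie beyond 2-fold lower.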

How the data were processed

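The deposited files, 1 per library, give estimated counts and FPKM per Entrez gene, and transcript length, per the file headers. Per the submitters' processing notes, which give no roles or versions, the tools were HISAT2, Bowtie2 and RSEM and the build mm10, and sequencing was on the BGISEQ-500, per the labels' protocols. FPKM was computed by the authors. How strand was handled is not given. Names and positions were taken from RefSeq for GRCm38.p6, which matched 15561 of 15605 identifiers.

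Estimated counts were rounded and scaled with TMM factors of edgeR 4.0.16 (0.921 wild type, 1.09 knockout) in R 4.3.3. The totals were 11885755 and 11740202, so genes of few counts have wide intervals. Poisson and Clopper-Pearson intervals are exact, and cover counting error only, since reads are not independent molecules. Samples were grouped by the genotype label, and no test across samples was made with 1 library a group. The length trend is a lowess fit with a span of 0.3. The alternatives tried were scaling by library totals or by DESeq2 1.42.0, deposited FPKM plus 0.1, length adjustment, a minimum of 10 or 200 counts or none, a pseudocount of 0.5 or 5, a threshold of 1.5-fold or 4-fold, and sums leaving out each gene.

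The 10 genes, the 17 other lists and the rule for named genes were chosen with earlier results of these data known. The rule takes the 10 genes, Lgmn, the 3 tested genes of each list with the largest log2 ratios, marker genes of highest FPKM, overlapping genes and genes starting within 10 kb, and the nearest ratios. Only those that bear on the 10 genes are printed, a few are not reported here, and other genes were named after their values were seen. The calculation was checked on simulated Poisson counts, with changes set only in genes of higher counts than all of the 10 but Thy1. Coverage of the intervals was checked only for genes past the count minimum, so the check does not cover genes of few counts. Intervals were computed with scipy 1.17.1, the trend with statsmodels 0.14.6 and figures with matplotlib 3.10.9, under Python 3.11.15.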

Additional observations from a re-analysis of the deposited data

How the results depend on the processing

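With 1 library a genotype, no replicate could be left out. No paired analysis was possible because each genotype has 1 library and the labels carry no replicate numbers. Of the 10 genes, none changed the sign of its log2 ratio under the 6 alternatives run for single genes. Of the other settings, DESeq2 size factors left Cd3d and Lck past 2-fold and all counts within 1.5 times. The number of T cell genes at least 2-fold higher, 2 of 4, was 0 with a minimum of 200 counts, under which none of the 10 is tested, 0 with a pseudocount of 5 and 0 at a 4-fold threshold. Their median log2 ratio of 0.64 was 0.88 with library totals. The log2 ratio of the summed counts, 0.54, was 0.77 with library totals and 0.76 with deposited FPKM, and it ran from 0.46 without Lck to 0.74 without Thy1. Over all genes, 575 passed 2-fold upward and 165 downward. These numbers were 1036 and 107 with library totals, 936 and 102 with deposited FPKM, 921 and 436 with a minimum of 10 counts, 273 and 67 with a minimum of 200, 1458 and 1531 with no minimum, 1562 and 607 at 1.5-fold and 40 and 45 at 4-fold, and 203 were higher after length adjustment. The cause of these moves was not tested, apart from the number of genes tested and the threshold, which differ by construction. Depth limits 6 of the 10 genes, which had fewer than 50 counts in both libraries.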
